A study of Mus musculus with 30 samples.

Results

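The genes described here code for the proteins with which cells hold, build and cut the extracellular matrix: the integrins, the collagens, the laminins, fibronectin, the matrix metalloproteases (Mmp), their tissue inhibitors (Timp), the Adam and Adamts metalloproteases, and urokinase (*Plau*) with its receptor (*Plaur*). They were chosen by symbol alone, from the rows of the table of microglial transcripts, leaving out *Itgax* and *Itgam*. The rule found 111 of the 13483 genes and 114 of the 14225 transcript rows, since *Itgae*, *Col18a1* and *Adamts20* have 2 rows each. RNA was sequenced from CD11B bead-isolated microglia of the whole brain of C57BL/6J mice, in 10 groups of 3 libraries. Pregnant dams had received either saline (Saline) or the viral RNA mimic poly(I:C) to provoke maternal immune activation (MIA) in mid-gestation. The offspring were taken at E17, P7 and P20 (Saline and MIA at each age), and at P60 after control chow (Saline + CTRL, MIA + CTRL) or after microglia had been removed by PLX5622, a blocker of their survival receptor CSF1R, given in the chow and had then repopulated the brain on control chow (Saline + MG-REP, MIA + MG-REP). A library was 1 litter at E17, 3 pooled brains at P7 and 1 brain at P20 and P60. The beads take any CD11B-positive cell, the animals were of both sexes, and the labels give no sex, litter or batch. Nothing says that the brains of a group at P7, P20 or P60 came from separate litters, so p-values there measure only the spread between these libraries.

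Integrins are cell surface receptors made of an alpha and a beta chain, and the pair decides what the cell can bind: laminin, collagen, fibronectin, or a counter-receptor on another cell. Laminins are trimers of an alpha, a beta and a gamma chain which, with type IV collagen, form basement membranes, in the brain mainly those around blood vessels and under the meninges. Fibrillar collagens form the fibres of the meninges and of larger vessels. Metalloproteases of the Mmp and Adamts families cut these proteins outside the cell, most Adam proteases release the outer part of membrane proteins, Timp proteins block them, and urokinase, held at the surface by its receptor, turns plasminogen into the protease plasmin. Microglia are known for beta-2 and beta-1 integrins and for a part of the proteases, while most basement membrane chains are known from endothelial, mural and meningeal cells.

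By role, the rows were 14 of integrin alpha chains (*Itga1*, *Itga2*, *Itga2b*, *Itga4*, *Itga6* to *Itga11*, *Itgad*, *Itgae* and *Itgav*) and 7 of beta chains (*Itgb1*, *Itgb2*, *Itgb2l*, *Itgb3*, *Itgb5*, *Itgb7*, *Itgb8*). There were 8 rows of fibrillar collagens (*Col1a1*, *Col1a2*, *Col3a1*, *Col5a1*, *Col5a2*, *Col11a1*, *Col11a2*, *Col27a1*), 7 of basement membrane collagens (*Col4a2*, *Col4a3*, *Col4a4*, *Col4a6*, *Col15a1*, *Col18a1*), 19 of other collagens (chains of types VI to IX, XII, XIV, XVI, XIX, XX, XXII, XXIII, XXVI and XXVIII) and 10 of laminin chains. The enzymes were 10 Mmp rows (*Mmp2*, *Mmp8*, *Mmp9*, *Mmp11*, *Mmp13*, *Mmp14*, *Mmp15*, *Mmp17*, *Mmp24*, *Mmp25*), 12 Adam rows, 16 Adamts rows and 2 of the urokinase system, with 3 Timp rows (*Timp2*, *Timp3*, *Timp4*). *Fn1*, fibronectin, was the only matrix glycoprotein. Another 5 rows match the symbols without being a subunit or a chain: *Itgb1bp1*, *Itgb1bp2*, *Itgb3bp*, *Itgbl1* and *Col4a3bp*, the last a ceramide transfer protein.

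Adult microglia that had repopulated the brain of Saline offspring were compared with those that had not, and the stretches before the start sites of 5 genes that differed between them are shown here. They are the 250 bases upstream of the start in RefSeq's GRCm38.p6 table, 5′ to 3′ on the gene's strand, with every match to 5 motifs in capitals on either strand: AP-1 (TGANTCA), PU.1 (GAGGAAG), the GC box (GGGCGG), the TATA box (TATAAA) and the CRE (TGACGTCA). *Plaur* (chr7:24462233-24462482, strand +), *Itga4* (chr2:79255176-79255425, strand +) and *Mmp14* (chr14:54431348-54431597, strand +) were higher after repopulation, and *Adamts1* (chr16:85803114-85803363, strand -) and *Col27a1* (chr4:63215162-63215411, strand +) were lower.
Plaur: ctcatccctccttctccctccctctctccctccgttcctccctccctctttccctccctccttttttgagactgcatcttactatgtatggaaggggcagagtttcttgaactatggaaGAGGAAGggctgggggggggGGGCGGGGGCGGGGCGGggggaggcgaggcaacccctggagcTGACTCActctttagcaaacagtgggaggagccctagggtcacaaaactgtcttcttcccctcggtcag
Itga4: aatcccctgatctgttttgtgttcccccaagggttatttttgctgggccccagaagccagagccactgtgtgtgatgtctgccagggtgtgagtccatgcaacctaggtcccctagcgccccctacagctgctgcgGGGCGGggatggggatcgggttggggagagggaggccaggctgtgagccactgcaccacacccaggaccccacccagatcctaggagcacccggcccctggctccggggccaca
Mmp14: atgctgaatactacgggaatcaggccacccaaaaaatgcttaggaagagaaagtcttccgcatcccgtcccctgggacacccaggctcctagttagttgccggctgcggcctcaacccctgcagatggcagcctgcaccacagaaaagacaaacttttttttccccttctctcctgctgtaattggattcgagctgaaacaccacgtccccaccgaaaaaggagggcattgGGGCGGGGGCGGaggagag
Adamts1: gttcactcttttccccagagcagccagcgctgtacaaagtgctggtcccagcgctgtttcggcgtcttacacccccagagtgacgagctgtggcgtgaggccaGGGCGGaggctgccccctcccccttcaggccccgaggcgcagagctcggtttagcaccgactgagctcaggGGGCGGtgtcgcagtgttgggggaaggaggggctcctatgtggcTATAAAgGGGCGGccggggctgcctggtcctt
Col27a1: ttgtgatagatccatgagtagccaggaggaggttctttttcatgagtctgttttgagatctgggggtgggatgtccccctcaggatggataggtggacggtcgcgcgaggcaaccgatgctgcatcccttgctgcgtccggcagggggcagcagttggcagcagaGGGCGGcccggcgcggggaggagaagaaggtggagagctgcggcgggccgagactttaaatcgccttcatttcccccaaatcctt
The *Plaur* window holds an AP-1 motif at -69 and a PU.1 motif at -131 from the start, with GC boxes at -111, -105 and -100, of which the last 2 share a base. The windows of *Itga4* and *Col27a1* hold a GC box each, at -114 and -85, that of *Mmp14* adjoining GC boxes at -19 and -13, and that of *Adamts1* a TATA box at -32 and 3 GC boxes. Promoter windows were at hand for 69 of the 111 genes (71 windows). The GC box stood in 56.3% of the 71 windows and in 32.7% of all 32851 windows in the table, PU.1 in 16.9% and 10.6%, AP-1 in 4.23% and 6.75%, the TATA box in 5.63% and 12.4%, and the CRE in 0 of the 71 and 1.55% of all. These shares describe letters in a window and were not tested.

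The deposited values are TPM, a measure of transcript abundance that is scaled by transcript length and sums to nearly the same total in every library, so levels of different genes can be set side by side. The steps between low values give an estimate of 8000000 to 12820000 counted reads per library, and 17 of the 113 member rows with a known length had a median under 10 reads per library. The 7 microglial markers checked were all measured and summed to 16294 TPM or more in every library. Markers of other cells were present too: the summed TPM of 10 of 12 endothelial markers ran from 468 to 4891 over the libraries, and that of 8 of 10 mural markers from 498 to 2322. In P60 Saline + MG-REP library 2, 9 of 10 neutrophil and monocyte markers summed to 5371 TPM, against 90.6 and 365.6 TPM in libraries 1 and 3. *Xist*, transcribed from the inactive X chromosome of females, was at 0.14 to 0.29 TPM in libraries 2 and 3 of both P60 CTRL groups and at 80.1 TPM or more in the other 26 libraries, so sex cannot be told apart from chow at P60, or from age in comparisons with P60 CTRL, beyond library 1 of each CTRL group. With *Xist* as a covariate 31 members were lower and 17 higher from E17 to P60 in Saline, and 37 and 16 in MIA. Shares of all rows in these fits are not given. Because the samples are bulk RNA, fewer cells of a type and less RNA per cell cannot be told apart.

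The highest mean over the 30 libraries belonged to *Itgb1*, the beta chain shared by most matrix-binding integrins. It had 672 ± 68.05 TPM (SD, n = 3) in E17 Saline and 447 ± 30.02 TPM (SD, n = 3) in P60 Saline + CTRL. *Timp2*, a general inhibitor of Mmp enzymes, followed with group means from 384 to 566 TPM, and *Adam10*, the sheddase that cuts Notch and the amyloid precursor protein, with group means from 311 to 415 TPM. *Itgb2*, the beta chain of the leukocyte integrins, ranged from 180.5 TPM in E17 MIA to 720.1 TPM in P60 Saline + MG-REP. *Col4a2*, a chain of type IV collagen, spanned the widest range of group means, from 38.8 TPM in P60 Saline + MG-REP to 897 TPM in E17 MIA. In 19 rows a group mean passed 100 TPM, and in 21 rows no group mean reached 2 TPM. Over the 12 comparisons below 81 rows were called in at least 1 (71.1%, against 69.1% of all rows) and 33 in none.

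In each class a few genes carried most of the transcripts. Among alpha chains *Itgav*, with group means of 67.95 TPM at E17 and 118 TPM at P60 in Saline, stood above *Itga1*, a collagen receptor chain (47.4 ± 21.9 and 31.1 ± 9.30 TPM at E17 and P60 in Saline, SD, n = 3). Among laminins *Lamb2* and *Lamc1*, the gamma-1 chain, had the highest means over the 30 libraries, and stood at 102 ± 33.5 and 155 ± 66.1 TPM (SD, n = 3) in E17 Saline. *Col9a3*, a chain of cartilage collagen IX, led the other collagens with 35.8 ± 14.5 TPM at E17, 93.1 ± 19.9 TPM at P20 and 31.3 ± 17.6 TPM at P60 in Saline (SD, n = 3). *Col4a6*, another type IV chain, had 2.01 ± 0.91 TPM in E17 Saline (SD, n = 3) and *Col15a1* 42.3 ± 11.1 TPM, far under *Col4a2*. *Itgb1bp1*, *Itgb3bp* and *Itgbl1* had 41.2 ± 0.84, 6.21 ± 1.39 and 6.32 ± 2.35 TPM (SD, n = 3) there.

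**Figure D1:**
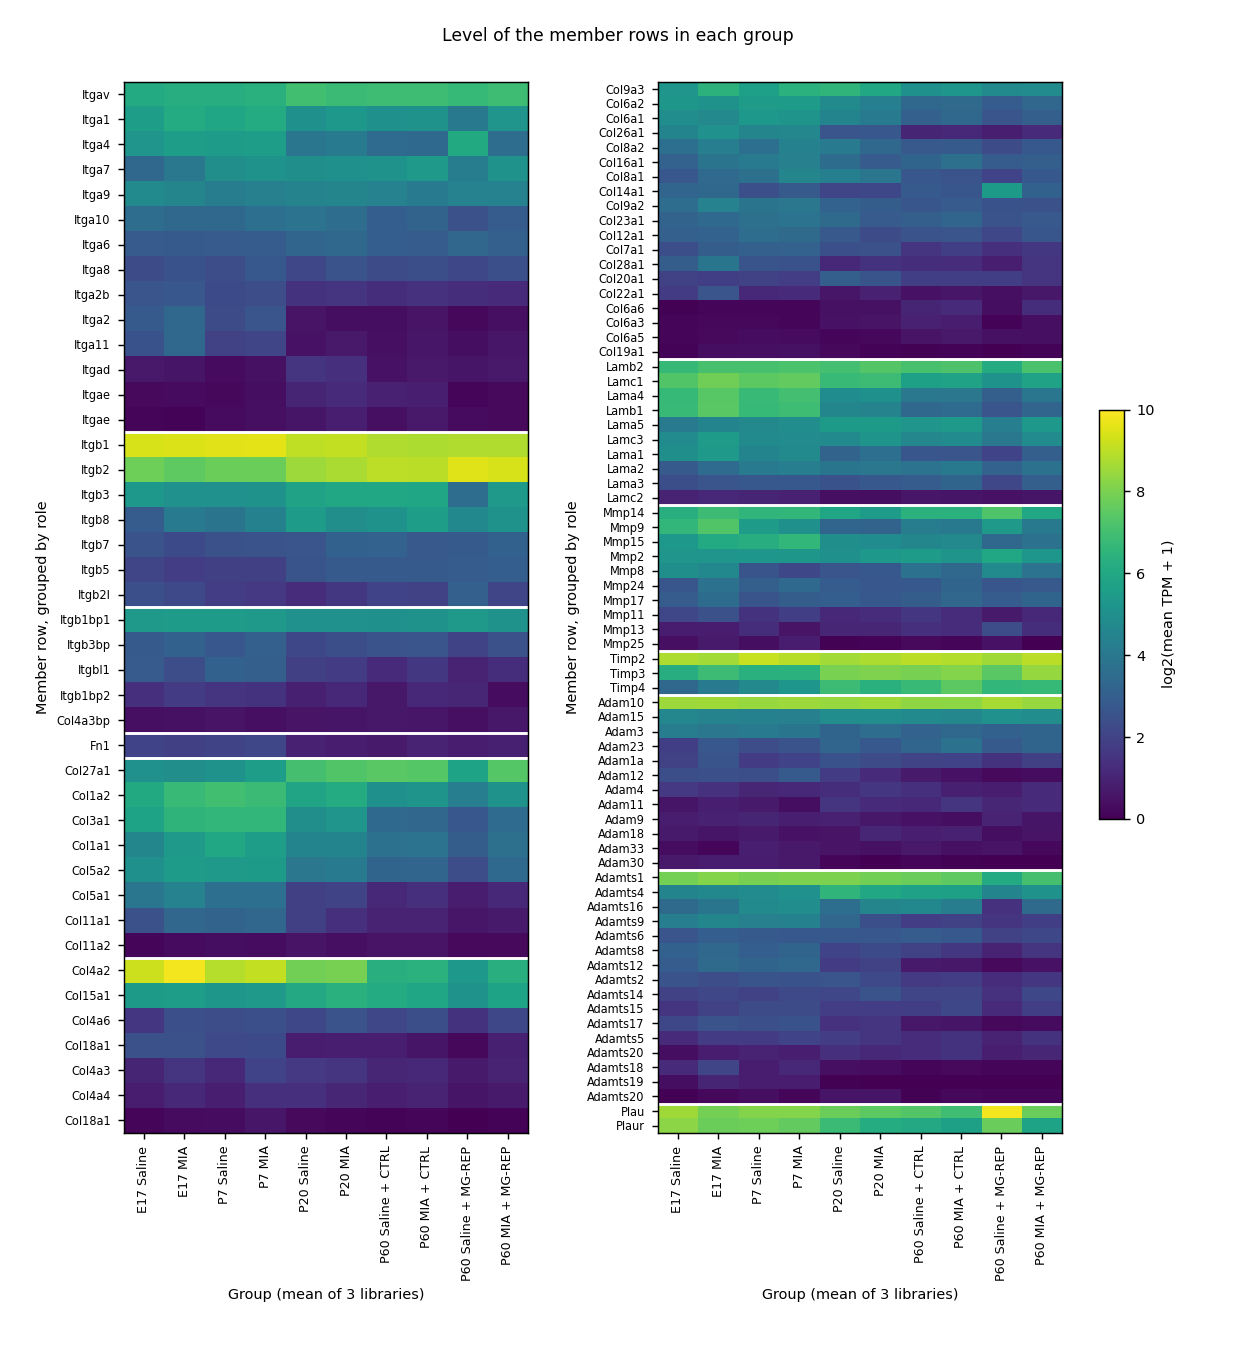
Mean level of each of the 114 rows (vertical, grouped by role and separated by white lines) in the 10 groups (horizontal), as log2(mean TPM + 1) by colour. *Lamb1* (from 108 to 8.99 TPM) and *Col4a2* (from 603 to 76.1 TPM) darken from E17 to P60 in Saline, while *Lamb2* does not. *Itga4*, *Col14a1* and *Plau* are brightest in P60 Saline + MG-REP among the P60 groups.

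Between E17 and P60 the matrix genes of Saline offspring changed in both directions, with more falls than rises. The falls included 6 of 8 fibrillar collagen rows, 4 of 10 laminin rows and 2 of 7 basement membrane collagen rows. Of 114 rows, 38 were lower in P60 Saline + CTRL than in E17 Saline (33.3%, against 25.4% of all rows tested), and 17 were higher (14.9%, against 22.1% of all rows). The same shares of all rows, 25.4% lower and 22.1% higher, stand beside the counts by class for these ages below. The median log2 fold change was -0.24 for the members and -0.01 for all rows. In MIA offspring 44 rows were lower (28.8% of all rows were) and 16 higher (19.3% of all rows were). These calls are limma's moderated test on log2(TPM + 1) at a Benjamini-Hochberg adjusted p under 0.05 over all 14225 rows, and fold changes on that scale understate those of low genes.

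*Lamb1*, the laminin beta-1 chain, had 171, 61.3 and 91.1 TPM in the libraries of E17 Saline and 12.6, 7.76 and 6.60 TPM in those of P60 Saline + CTRL. No library of one age reached the range of the other, as in 56.1% of all rows (log2 fold change -3.36, SE 0.38, adjusted p = 1.34e-07). *Lama4*, the laminin alpha-4 chain of vessels, went from 159.7, 53.3 and 92.1 to 18.6, 15.1 and 11.3 TPM (log2 fold change -2.57, SE 0.40, adjusted p = 1.12e-05). *Col4a2* went from 908, 317 and 585 to 92.05, 83.0 and 53.1 TPM (log2 fold change -2.88, SE 0.41, adjusted p = 3.87e-06). In each of these genes E17 Saline library 2 was the lowest of its group, and it was still above every P60 library. *Lama1* (-2.26), *Lamc1* (-1.54) and the row NM_009929 of *Col18a1* (-1.48) fell as well, the values being log2 fold changes.

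Not every laminin chain moved this way. *Lamb2*, the beta-2 chain, had 135, 68.3 and 104 TPM in E17 Saline and 169, 143 and 95.1 TPM in P60 Saline + CTRL, ranges that overlapped (log2 fold change of 0.42 ± 0.30, SE, adjusted p = 0.266). *Lama5*, the alpha-5 chain of mature vessels, rose from 22.3, 9.12 and 17.3 to 40.2, 41.2 and 26.6 TPM (log2 fold change 1.16, SE 0.38, adjusted p = 0.0138), and the call was lost without E17 Saline library 2 or without P60 Saline + CTRL library 2. As a share of *Lamb1* and *Lamb2* together, *Lamb2* made up 44.1% to 53.2% in the libraries of E17 Saline, 55.0% to 58.1% in P7 Saline, 81.3% to 86.1% in P20 Saline and 93.1% to 94.9% in P60 Saline + CTRL. *Lama5* as a share of *Lama4* and *Lama5* went from 12.3% to 15.8% at E17 through 18.4% to 19.6% at P7 and 53.8% to 65.0% at P20 to 68.4% to 73.2% at P60. Both shares were thus higher at each later age in Saline offspring without overlap, and the MIA libraries passed through 43.7% to 47.5% at E17 and 93.4% to 93.7% at P60 for *Lamb2*. Between 3 libraries and 3 an exact permutation test cannot give a p below 0.1, so no test of these shares is given.

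Fibrillar collagens fell in 6 of 8 rows and rose in 1. *Col5a1*, a chain that starts collagen fibrils, went from 17.3, 11.1 and 14.7 to 1.59, 1.28 and 0.64 TPM (log2 fold change -2.83, SE 0.33, adjusted p = 2.44e-07). *Col3a1*, of the fibres of vessel walls and meninges, went from 71.8, 41.7 and 50.7 to 13.1, 9.15 and 6.55 TPM (log2 fold change -2.41, SE 0.32, adjusted p = 1.37e-06). Both were lower in every P60 library than in any at E17. *Col5a2* (-1.75), *Col11a1* (-1.52), *Col1a2* (-1.08) and *Col1a1* (-0.85) had smaller log2 fold changes. *Col27a1*, a fibril-forming collagen best known from cartilage, went the other way: it had 30.7, 30.4 and 35.1 TPM in E17 Saline and 182, 149.6 and 188 TPM in P60 Saline + CTRL (log2 fold change 2.39, SE 0.36, adjusted p = 7.46e-06).

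Among the other collagens 6 rows fell and 2 rose. The largest fall was in *Col26a1*, with 31.9, 15.7 and 17.96 TPM at E17 and 0.99, 1.53 and 0.63 TPM at P60 in Saline (log2 fold change -3.44, SE 0.34, adjusted p = 2.2e-08). The type VI chains *Col6a1* and *Col6a2* fell together, by 1.86 and 1.98 on the log2 scale. Their partner *Col6a3* (0.64) and *Col6a6* (0.95) rose from levels at or under 0.19 TPM, which rest on a few reads.

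**Figure D2:**
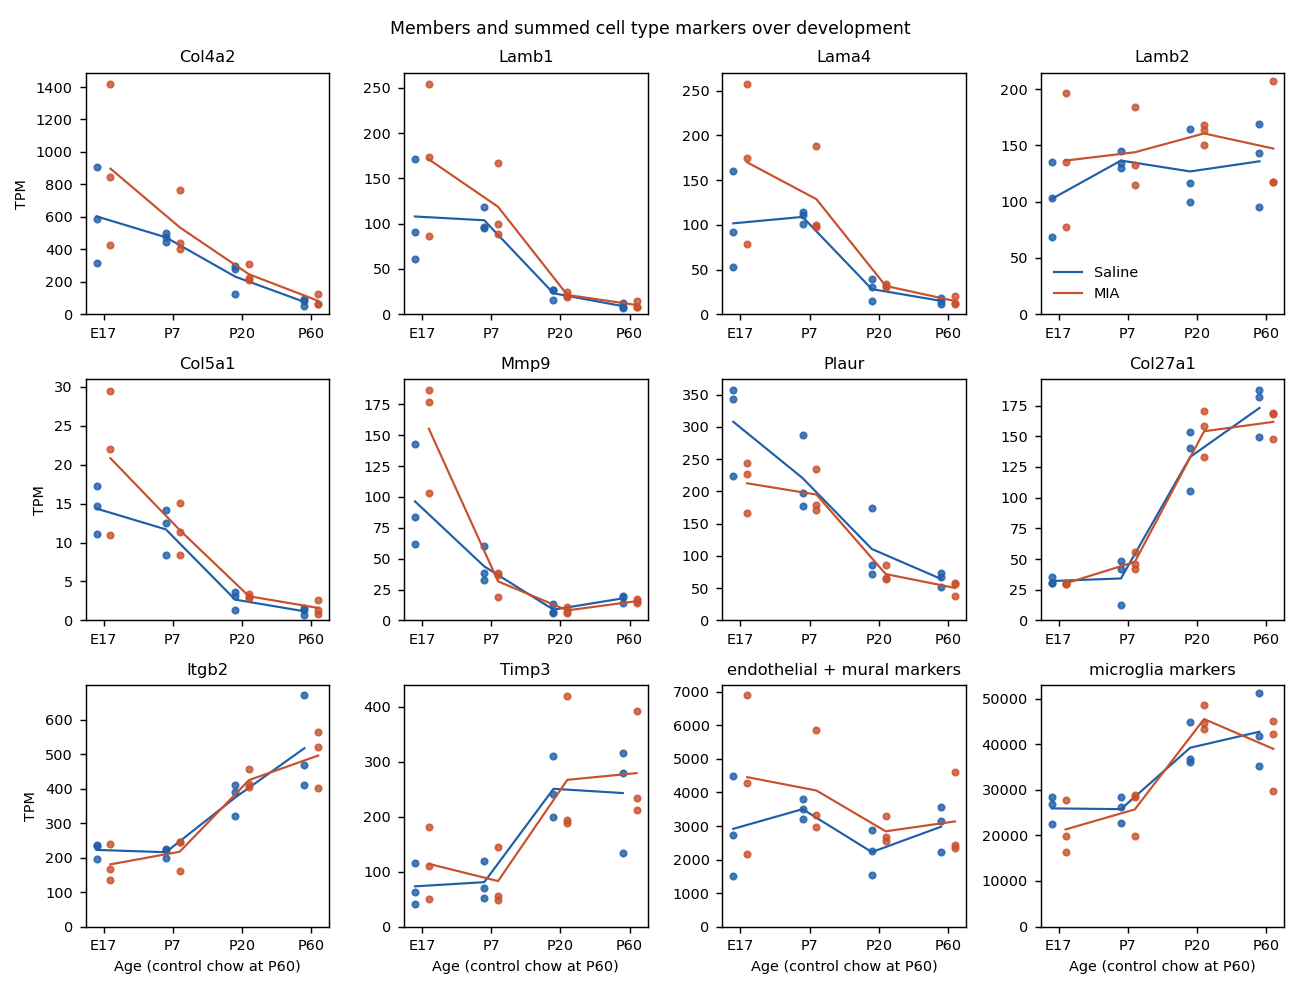
TPM of 10 members and summed TPM of 2 sets of markers (endothelial with mural, and microglial) (vertical) at 4 ages (horizontal), each point a library and each line a group mean, Saline in blue and MIA in orange, P60 on control chow. *Lamb1* and *Lama4* drop between P7 and P20 and *Col27a1* climbs there, while the endothelial and mural sums overlap between E17 and P60.

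Markers of the cells known to make these chains are given beside the falls, in which their part was not tested. The endothelial sum was 1007 to 3184 TPM in E17 Saline and 1175 to 1924 TPM in P60 Saline + CTRL, and the mural sum 510.4 to 1323 and 1052 to 1640.4 TPM. Fibroblast and meningeal markers (10 of 10 measured) were at 139 to 248 and 325 to 586 TPM. With the summed endothelial and mural markers as a covariate, an alternative added after the data were seen, 45 rows were lower and 20 higher between these ages. The share of all rows in that fit is not given, so these counts are not shown to be particular to the members. Border macrophage markers (7 of 8) went from 1601 to 2194 to 889 to 1172 TPM.

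The integrins shifted from beta-1 towards beta-2. *Itgb1* fell by 0.58 on the log2 scale in Saline (adjusted p = 0.000174), while *Itgb2* rose from 195, 237 and 235 to 469, 411 and 673 TPM (log2 fold change 1.19, SE 0.19, adjusted p = 1.71e-05). *Itgb2* made up 20.8% to 28.2% of the 2 chains together in E17 Saline and 49.4% to 58.4% in P60 Saline + CTRL. *Itgav*, the alpha chain that binds vitronectin and latent TGF-beta, rose from 70.2, 69.1 and 64.6 to 108, 124 and 122 TPM (log2 fold change 0.79, SE 0.09, adjusted p = 2.13e-07). Of the beta chains that pair with it, *Itgb8* (2.11 ± 0.61), *Itgb5* (0.77 ± 0.23) and *Itgb3* (0.65 ± 0.24) rose too, as log2 fold changes with SE, the *Itgb5* call being lost without E17 Saline library 1. The *Itgb8* libraries of P60 Saline + CTRL were at 28.1, 60.2 and 15.4 TPM, and without library 2, the highest, the call was lost. Astrocyte markers (9 of 9) rose alongside from 122 to 183 to 273 to 947 TPM, and their part in the rise of *Itgb8* was not tested.

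Among the alpha chains 5 rows fell and 3 rose. *Itga4*, which pairs with beta-1 or beta-7 and binds fibronectin and VCAM1, went from 46.4, 26.5 and 36.03 TPM in E17 Saline to 10.9, 10.04 and 9.59 TPM in P60 Saline + CTRL (log2 fold change -1.71, SE 0.21, adjusted p = 5.6e-07). The collagen receptor chains *Itga2* (-2.36) and *Itga11* (-2.04) and the megakaryocyte chain *Itga2b* (-1.28) also fell, each to under 2 TPM, as did *Itga10* (-0.58), whose groups overlapped. *Itga7*, a laminin receptor chain, rose from 11.9, 7.45 and 8.19 to 31.8, 44.3 and 23.99 TPM (log2 fold change 1.74, SE 0.35, adjusted p = 0.000269). The row NM_008399 of *Itgae*, the partner of beta-7 that binds E-cadherin, rose from 0.06, 0.23 and 0.29 to 0.54, 0.93 and 1.27 TPM, a range of few reads.

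Of the protease rows, those of the urokinase system included, 11 fell and 2 rose, and 2 of the 3 inhibitor rows rose. *Mmp9*, gelatinase B, went from 143, 62.3 and 84.1 TPM in E17 Saline to 19.2, 14.4 and 19.97 TPM in P60 Saline + CTRL (log2 fold change -2.30, SE 0.56, adjusted p = 0.00163), and was the only one of 10 Mmp rows called in Saline. The 9 neutrophil and monocyte markers measured summed to 856 to 1117 TPM at E17 and 738 to 897 TPM at P60. In MIA offspring *Mmp9*, *Mmp15*, *Mmp11* and *Mmp25* fell. Of 16 Adamts rows 6 fell in Saline, led by *Adamts9* (-2.33) and *Adamts12* (-2.12), and *Adamts16* rose (1.21). *Adamts1*, which cuts the proteoglycan versican, was the most abundant of them and had 331, 173 and 220.4 TPM against 198, 198 and 228 TPM, ranges that overlapped (log2 fold change of -0.17 ± 0.24, SE, adjusted p = 0.592). Of the Adam rows *Adam12* (-1.73) and *Adam3* (-1.07), the latter best known from sperm, fell. *Adam23*, a neuronal member without protease activity, rose (1.34), but in only 1 of the 6 fits without a library, the one without P60 Saline + CTRL library 3. *Adam10* and *Adam15*, the most abundant, were not called in Saline.

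*Timp4* had the largest rise of all members, from 13.6, 3.86 and 10.6 TPM in E17 Saline to 95.0, 179 and 52.3 TPM in P60 Saline + CTRL (log2 fold change 3.38, SE 0.59, adjusted p = 5.59e-05). Astrocyte markers rose over the same ages, as given above, and their part in this rise was not tested. *Timp3*, which binds to the matrix and also blocks Adamts enzymes, went from 117, 40.5 and 62.6 to 315, 279.6 and 135 TPM (log2 fold change 1.76, SE 0.48, adjusted p = 0.00409). *Timp2* was at 407, 469 and 439 TPM against 489, 446 and 573 TPM and was not called. *Plaur* fell from 343, 223 and 358 to 67.3, 52.2 and 73.3 TPM (log2 fold change -2.23, SE 0.27, adjusted p = 3.43e-07) and *Plau* from 478, 319.9 and 328 to 178, 162 and 135 TPM (log2 fold change -1.23, SE 0.26, adjusted p = 0.000506). *Fn1* stayed under 5 TPM in every library and fell by 1.25 on the log2 scale in Saline.

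More members passed between P7 and P20 than in the steps before or after, and so did more of all rows (36.2%, against 4.32% before and 3.51% after). From E17 to P7 in Saline, 4 rows rose (3.09% of all rows did) and 1 fell (1.23% of all rows). The rises were *Itga7* (1.63 ± 0.35), *Lama2* (1.36 ± 0.37), *Col1a1* (1.32 ± 0.32) and *Adamts16* (1.23 ± 0.32), and the fall was *Itga9* (-0.56 ± 0.16), an alpha chain that binds tenascin, all as log2 fold changes with SE. Only *Itga7* kept its call in each fit without a library. From P7 to P20, 16 rows rose (16.1% of all rows) and 32 fell (20.1% of all rows). The named rises were *Col27a1*, *Timp4*, *Timp3*, *Adamts4*, *Itgb8*, *Itgad*, *Col20a1*, *Itgae*, *Adam11*, *Itgb2*, *Col15a1* and *Itgav*, with log2 fold changes from 0.76 to 2.12. *Mmp9*, *Lamb1*, *Lama4* and *Col26a1* led the falls, at -2.22, -2.14, -2.02 and -1.98, followed by *Col5a1*, *Itga2*, *Col3a1*, *Itga4*, *Adamts12*, *Col28a1*, *Itga11* and *Col5a2* with -1.82 to -1.43. *Adamts4*, an aggrecan-cutting enzyme, had 23.4, 29.6 and 28.01 TPM at P7 and 147, 70.98 and 61.6 TPM at P20, beside oligodendrocyte markers (8 of 10) at 326 to 567 and 1511 to 4108 TPM, whose part was not tested. *Adamts4* and *Itgb8* passed only in the fit without P20 Saline library 3 among the 6 fits without a library. *Adam11* lost its call without P7 Saline library 3, P20 Saline library 1 or P20 Saline library 3, *Col15a1* without library 1 of either age, and *Col20a1* without P20 Saline library 1.

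From P20 to P60 in Saline, 10 rows fell (2.49% of all rows did) and 1 rose (1.02% of all rows). They were *Col8a1* (-1.69), *Col26a1* (-1.55), *Col4a2* (-1.53), *Col6a1* (-1.52), *Col6a2* (-1.50), *Col3a1* (-1.50), *Col20a1* (-1.08), *Adam12* (-1.06), *Itgad* (-0.98) and *Itga10* (-0.84), with *Col6a6* (0.58) as the rise. *Col4a2* went from 277, 123 and 296 to 92.05, 83.0 and 53.1 TPM and *Col8a1*, a chain of vessel and meningeal networks, from 15.8, 19.3 and 22.3 to 9.32, 4.41 and 3.23 TPM. Neither pair of groups overlapped, as in 19.4% of all rows. These calls were the least stable: with *Xist* as a covariate 0 of the 10 falls passed, in a fit of only the 2 groups 0 passed, and leaving out single libraries left 1 to 9.

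By the age with the highest mean in Saline offspring on control chow, 27 rows were highest at E17, 42 at P7, 28 at P20 and 17 at P60. The same counts over all rows were not made, so these are not shown to be particular to the members. Rows with few reads were counted too. The 27 included *Plau*, *Plaur*, *Mmp9*, *Col4a2* and *Lamb1*, and the 17 included *Col27a1*, *Itgb2* and *Itgb3*.

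No member passed limma's test of MIA against Saline at any age. At E17, P7, P20 and P60 on control chow 0 of 114 rows passed, as did 0% of all rows at each age, and at an unadjusted p under 0.05 there were 5, 2, 3 and 1 members among 585, 335, 457 and 256 rows. At E17 the smallest p-values were those of *Col28a1*, *Itga11* and *Plau*. *Plau* had 478, 319.9 and 328 TPM in Saline and 204, 275 and 239 TPM in MIA, without overlap (log2 fold change -0.63, SE 0.26, adjusted p = 0.754). Of all rows, 6.05% did not overlap at E17 and 9.69% at P20. At P20 *Adamts16* had 13.3, 13.6 and 6.96 TPM in Saline and 22.02, 30.8 and 14.2 TPM in MIA, again without overlap (log2 fold change 0.92, SE 0.32, adjusted p = 1), followed by *Adam18* (0.58 ± 0.21) and *Adam12* (-0.57 ± 0.27). At P7 the 3 smallest p-values were those of *Col4a3*, *Mmp25* and *Col27a1*, and at P60 those of *Mmp2*, *Adam4* and the row NM_172944 of *Itgae*. E17 MIA library 3, singled out after its values were seen, had 1417 TPM of *Col4a2* and 254 TPM of *Lamb1*, and it also had 4891 TPM of the endothelial markers, the highest of the 30 libraries, whose part was not tested. The 95% interval of the E17 difference ran from -0.32 to 1.39 for *Col4a2* and from -0.14 to 1.45 for *Lamb1* on the log2 scale, so that rises of over 2-fold lay inside both.

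Among the contrasts of 2 groups that were run at P60, members passed only between Saline + MG-REP and Saline + CTRL. MIA + MG-REP was not tested against Saline + MG-REP. An alpha-4 integrin chain, urokinase with its receptor and a fibril-associated collagen were higher after repopulation, and *Adamts16*, *Adamts1*, the beta-3 integrin chain and *Col27a1* were lower. Of 114 rows 9 were higher in Saline + MG-REP than in Saline + CTRL (11.9% of all rows were) and 14 were lower (14.9% of all rows were). The members' shares, 7.89% and 12.3%, were thus no higher than those of all rows. The median log2 fold change was -0.33 for members and -0.14 for all rows, and after median-ratio scaling of the libraries -0.26 and -0.05.

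*Itga4* had the largest rise. It had 10.9, 10.04 and 9.59 TPM in Saline + CTRL and 79.5, 58.1 and 60.6 TPM in Saline + MG-REP (log2 fold change 2.57, SE 0.21, adjusted p = 1.96e-09). All 3 repopulated libraries stood above the 26.5 to 46.4 TPM of the E17 Saline libraries, and of the 27 other libraries only E17 MIA library 3 (60.6 TPM) and P7 MIA library 3 (60.03 TPM) reached their range. *Plau* had 178, 162 and 135 TPM in Saline + CTRL and 1470.2, 769 and 488 TPM in Saline + MG-REP (log2 fold change 2.38, SE 0.26, adjusted p = 2.13e-07), with library 1 at 1470.2 TPM the highest of all 30 libraries. Its receptor *Plaur* had 67.3, 52.2 and 73.3 TPM against 253, 198 and 178 TPM (log2 fold change 1.69, SE 0.27, adjusted p = 3.32e-05). *Col14a1*, a collagen that sits on the surface of fibrils, had 7.25, 6.78 and 4.45 TPM against 66.4, 34.6 and 26.5 TPM (log2 fold change 2.52, SE 0.33, adjusted p = 2.88e-06). Each of these 4 genes kept its call in every alternative tried, including each left-out library. Their groups did not overlap, which the rule for naming calls required and which held for 38.4% of all rows. Library 1, the highest in all 4, had 90.6 TPM of the neutrophil and monocyte markers and 18.6 TPM of the 3 of 9 T and NK cell markers measured, against 215 and 227 TPM of the latter in libraries 2 and 3 and 12.3 to 52.2 TPM in Saline + CTRL. The neutrophil and monocyte sums of libraries 1 and 3 lay under the Saline + CTRL range given above, and that of library 2 over it. The part of such cells in these rises was not tested.

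The membrane-bound protease *Mmp14*, which activates *Mmp2*, had 75.9, 91.5 and 78.1 TPM in Saline + CTRL and 182, 149 and 119.6 TPM in Saline + MG-REP (log2 fold change 0.85, SE 0.27, adjusted p = 0.0203). *Mmp2*, gelatinase A, had 41.7, 37.3 and 54.2 TPM against 71.9, 60.8 and 55.3 TPM (log2 fold change 0.50, SE 0.16, adjusted p = 0.0239). *Adam10* had 326, 290.3 and 342 TPM against 532, 369.6 and 344 TPM (log2 fold change 0.35, SE 0.12, adjusted p = 0.0282). The other 2 rises were *Adam9* (0.45 ± 0.15), which stayed under 1.4 TPM, and *Itgb1bp1*, a regulator of beta-1 integrin activation (0.35 ± 0.12). None of the 5 passed without Saline + MG-REP library 1 or without Saline + CTRL library 1. Without Saline + CTRL library 2 *Mmp2*, *Adam10* and *Adam9* also lost the call, and without Saline + CTRL library 3 *Mmp14* and *Itgb1bp1* did.

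**Figure D3:**
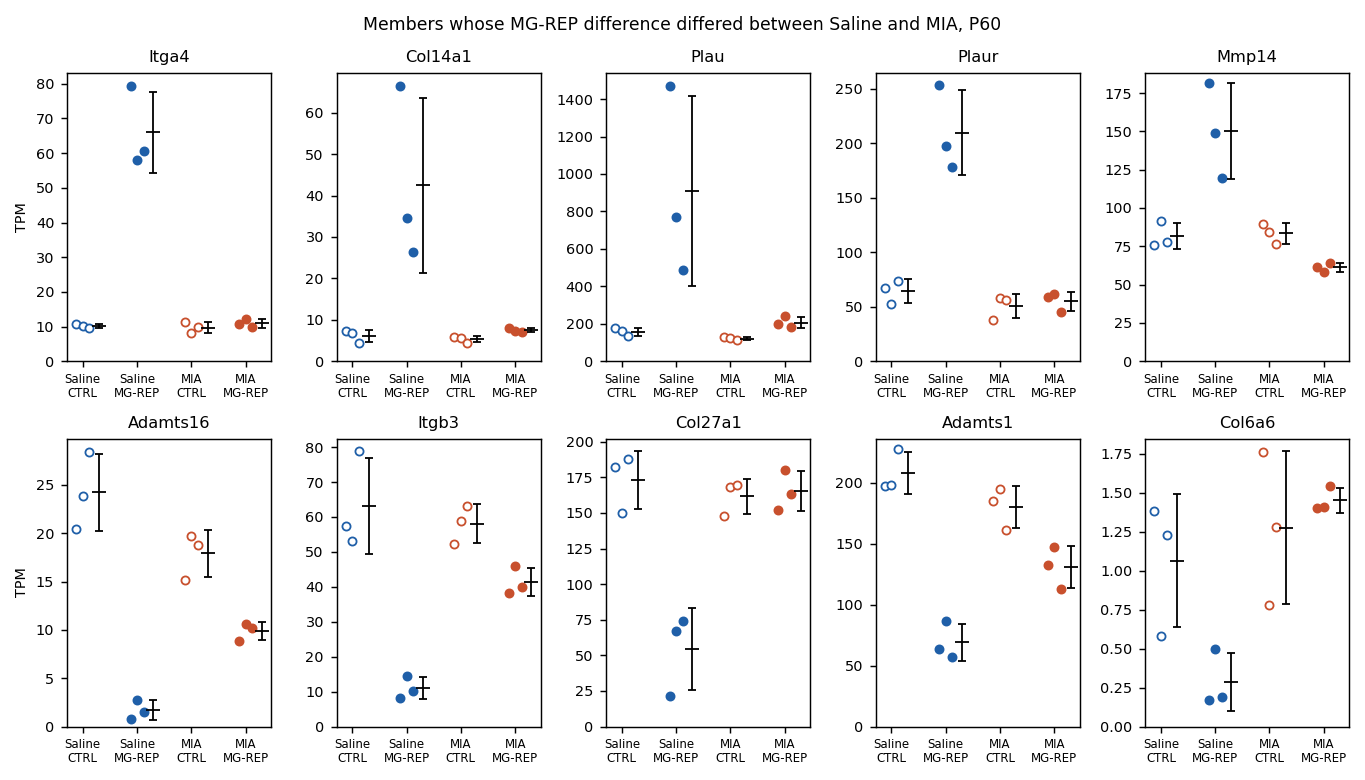
TPM (vertical, from 0) of 10 members in the 12 P60 libraries (horizontal, by group), open points for CTRL and filled for MG-REP, blue for Saline and orange for MIA, with the group mean and SD in black. In the Saline + MG-REP libraries *Itga4* lies between 58.1 and 79.5 TPM and *Itgb3* between 8.15 and 14.4 TPM, away from the other 3 groups.

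The falls were led by *Adamts16*, a secreted metalloprotease, which had 20.5, 23.9 and 28.4 TPM in Saline + CTRL and 0.82, 2.79 and 1.54 TPM in Saline + MG-REP (log2 fold change -3.27, SE 0.32, adjusted p = 3.78e-08). *Itgb3*, the beta chain that pairs with alpha-v, had 57.4, 53.2 and 78.9 TPM against 8.15, 14.4 and 10.3 TPM (log2 fold change -2.44, SE 0.24, adjusted p = 4.84e-08). *Col27a1* had 182, 149.6 and 188 TPM against 21.2, 67.1 and 74.2 TPM (log2 fold change -1.84, SE 0.36, adjusted p = 0.00038), and *Adamts1* 198, 198 and 228 TPM against 63.3, 86.5 and 56.9 TPM (log2 fold change -1.60, SE 0.24, adjusted p = 1.37e-05). The groups of these 4 did not overlap either, again as the rule for naming calls required. *Adamts16*, *Itgb3* and *Adamts1* were lower in these repopulated libraries than in any other library of the series, whereas the *Col27a1* libraries at 67.1 and 74.2 TPM stood above all at E17.

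The other 10 falls were *Mmp15* (-1.22), *Adamts6* (-1.03), *Col15a1* (-1.01), *Adamts8* (-0.98), *Lamb2* (-0.94), *Mmp11* (-0.90), *Col5a2* (-0.87), *Itgae* (-0.79), *Col6a3* (-0.70) and *Col6a6* (-0.67), as log2 fold changes. *Col6a3* and *Col6a6* had medians of 9 and 8 reads per library. *Lamb2* had 169, 143 and 95.1 TPM in Saline + CTRL and 49.97, 85.4 and 75.6 TPM in Saline + MG-REP, without overlap. Markers of vessel cells were lower as well, and their part in these falls was not tested. The endothelial sum was 1175 to 1924 TPM in Saline + CTRL and 468 to 939 TPM in Saline + MG-REP, and the mural sum 1052 to 1640.4 and 498 to 808 TPM. The fibroblast and meningeal sum was 325 to 586 and 203 to 281 TPM. With the endothelial and mural sum as a covariate, *Mmp15*, *Adamts6*, *Adamts8*, *Lamb2*, *Mmp11* and *Col5a2* no longer passed, and *Col5a2* changed sign to a log2 fold change of 0.0086. These 6 also lost the call without Saline + MG-REP library 1. All but *Adamts6* lost it without Saline + CTRL library 1, and all but *Adamts6* and *Mmp11* without Saline + CTRL library 2. *Adamts8* and *Col5a2* lost it without Saline + MG-REP library 3, and *Adamts8* without library 2. In the fit with the covariate, 12 member rows were higher and 9 lower, the share of all rows not being given. *Mmp2*, *Adam9*, *Adam10* and *Itgb1bp1* no longer passed either. *Itga4*, *Col14a1*, *Plau*, *Plaur* and *Mmp14* stayed higher and *Adamts16*, *Itgb3*, *Col27a1* and *Adamts1* lower.

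The sex of the mice differed between these groups as *Xist* shows. Saline + CTRL library 1, the one with *Xist* at 124 TPM, had 10.9 TPM of *Itga4*, 178 TPM of *Plau*, 57.4 TPM of *Itgb3* and 20.5 TPM of *Adamts16*, on the same side of the MG-REP libraries as CTRL libraries 2 and 3. This is 1 library, and sex and repopulation cannot be told apart by it. With *Xist* as a covariate 6 rows were higher and 17 lower, and *Mmp14*, *Adam9*, *Adam10*, *Itgb1bp1* and *Mmp15* no longer passed. The repopulated Saline libraries also had fewer transcripts of the microglial markers, 24895 to 28374 TPM against 35292 to 51118 TPM, and more of the border macrophage markers, 1148 to 2168 TPM against 889 to 1172 TPM, whose part in the rises was not tested.

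**Figure D4:**
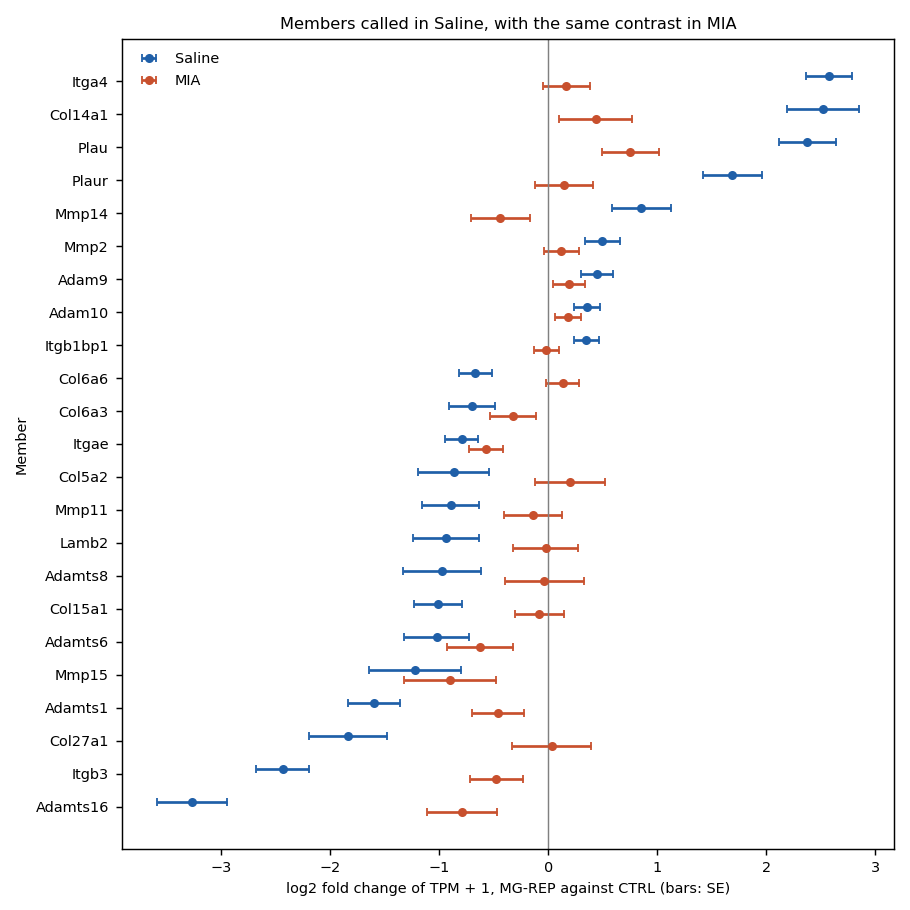
Log2 fold change of TPM + 1 (horizontal) of MG-REP against CTRL for the 23 members called in Saline (vertical), with bars for the SE, in Saline (blue) and in MIA offspring (orange). *Itga4* is at 2.57 in Saline and 0.17 in MIA, and *Adamts16* at -3.27 and -0.79.

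In MIA offspring the same contrast called 0 of 114 members, with 0.555% of all rows called. An unadjusted p under 0.05 was found in 8 members (7.02%, against 6.2% of all rows). The smallest p-values belonged to both rows of *Itgae* and to *Plau*. *Plau* had 129, 123 and 113 TPM in MIA + CTRL and 198, 240.4 and 180.3 TPM in MIA + MG-REP, which did not overlap, with a log2 fold change 0.75, SE 0.26, adjusted p = 0.397. The *Itgae* row NM_008399 had 0.86, 0.58 and 0.91 TPM against 0.21, 0.13 and 0.25 TPM (log2 fold change -0.57, SE 0.15, adjusted p = 0.114). *Itga4* had 11.3, 8.02 and 9.75 TPM in MIA + CTRL and 10.8, 12.3 and 9.79 TPM in MIA + MG-REP, a log2 fold change of 0.17 with a 95% interval from -0.28 to 0.61. *Adamts16* had 15.2, 19.8 and 18.8 TPM against 8.81, 10.6 and 10.2 TPM (log2 fold change -0.79, SE 0.32, adjusted p = 0.616), and *Itgb3* 52.3, 58.8 and 63.2 TPM against 38.3, 45.98 and 40.1 TPM (log2 fold change -0.48, SE 0.24, adjusted p = 0.845). Both were lower in all 3 MG-REP libraries than in any CTRL library, as in Saline, by a smaller amount, but neither passed the test. The groups did not overlap in 22 of the 114 members and in 17.8% of all rows in MIA.

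The test of the difference between these contrasts, MIA minus Saline, called 10 members. It was higher in 5 (4.42% of all rows were) and lower in 5 (6.09% of all rows were). It was lower for *Itga4* (-2.41 ± 0.30), *Col14a1* (-2.09 ± 0.47), *Plau* (-1.63 ± 0.37), *Plaur* (-1.55 ± 0.38) and *Mmp14* (-1.29 ± 0.38), all genes that rose with repopulation in Saline. It was higher for *Adamts16* (2.48 ± 0.46), *Itgb3* (1.96 ± 0.35), *Col27a1* (1.87 ± 0.51), *Adamts1* (1.14 ± 0.33) and *Col6a6* (0.80 ± 0.22), all genes that fell. The values are differences of log2 fold changes with SE, and the adjusted p ran from 6.28e-06 for *Itga4* to 0.0293 for *Mmp14*. *Mmp14* had 89.8, 84.3 and 76.4 TPM in MIA + CTRL and 61.4, 57.98 and 64.1 TPM in MIA + MG-REP. Its groups thus stood apart in the opposite order from Saline, as groups did in 17.8% of all rows in MIA. It was not called there, with a log2 fold change of -0.44 and an adjusted p of 0.953. *Col27a1* had 148, 168 and 169 TPM against 152, 180.2 and 163 TPM in MIA, overlapping ranges. The contrast in Saline and the difference share the Saline libraries. Without Saline + MG-REP library 1 the *Mmp14*, *Col27a1*, *Adamts1* and *Col6a6* differences no longer passed. *Mmp14* also lost the call without Saline + CTRL libraries 1 or 3, MIA + CTRL libraries 1 or 2, or MIA + MG-REP libraries 1 or 2, and *Adamts1* without Saline + CTRL library 3, MIA + CTRL library 3, Saline + MG-REP library 3, or MIA + MG-REP libraries 1 or 2. *Col6a6*, with a median of 8 reads per library, lost it without Saline + CTRL libraries 1 or 3 or MIA + CTRL library 2. The *Itga4*, *Col14a1*, *Plau*, *Plaur*, *Adamts16* and *Itgb3* differences passed in every fit without a library.

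*Mmp8*, *Mmp9* and *Itgb2l*, picked after their values were seen, followed 1 library after repopulation. *Mmp8*, the collagenase of neutrophils, had 1.27, 68.6 and 7.36 TPM in Saline + MG-REP and *Itgb2l*, a beta-2-like integrin chain, 0.18, 21.3 and 0.52 TPM. *Mmp9* had 29.1, 89.2 and 5.09 TPM there. Library 2 was the highest of the 30 libraries in *Mmp8* and *Itgb2l* and was the library with 5371 TPM of neutrophil and monocyte markers. Without it 9 members were higher and 24 lower in Saline + MG-REP, with the share of all rows in that fit not given. *Mmp13*, another collagenase, was at 6.97, 3.15 and 2.15 TPM in Saline + MG-REP and 2.34, 1.75 and 0.54 TPM in Saline + CTRL, with library 1 the highest.

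**Figure D5:**
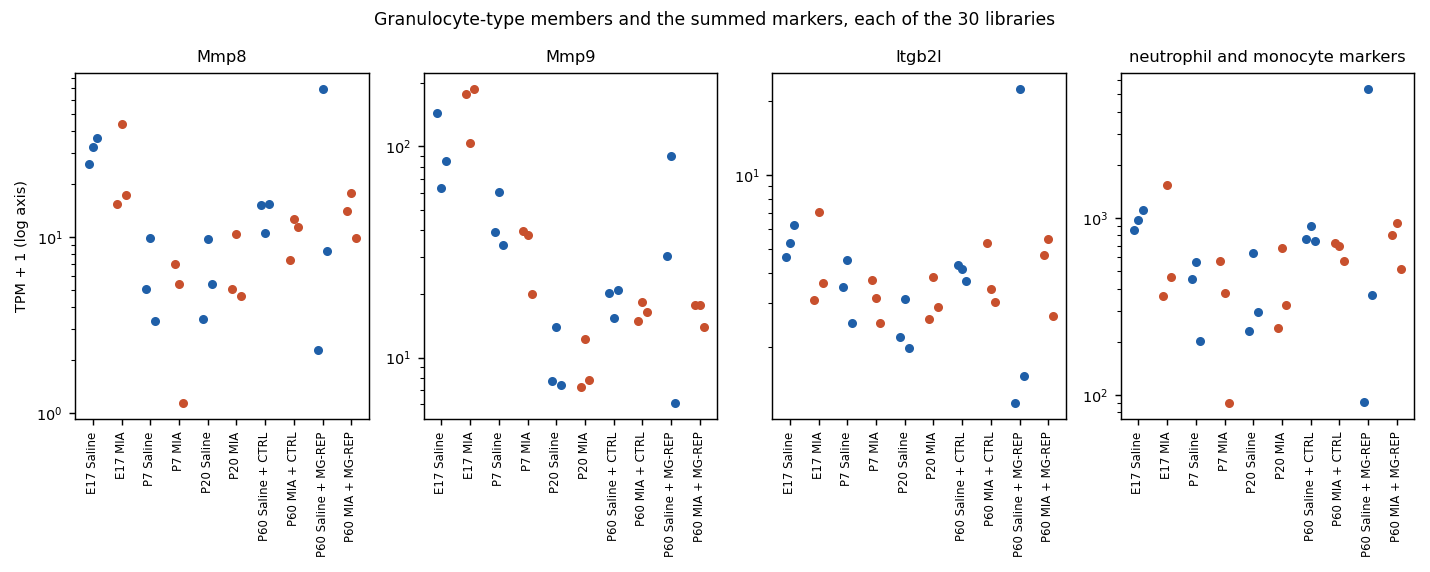
TPM + 1 on a log axis (vertical) of *Mmp8*, *Mmp9*, *Itgb2l* and the summed neutrophil and monocyte markers in each library of the 10 groups (horizontal), Saline in blue and MIA in orange. Library 2 of P60 Saline + MG-REP stands highest in *Mmp8*, *Itgb2l* and the markers, at 68.6, 21.3 and 5371 TPM.

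Genes of the same pathways that the symbol rule leaves out were described by count. Of 38 rows of other matrix proteins and collagen-processing enzymes (37 of 47 genes measured), 18 fell and 4 rose between E17 and P60 in Saline, with a median log2 fold change of -0.54 against -0.01 for all rows, of which 25.4% fell and 22.1% rose. The falls included *Nid1*, nidogen, which ties laminin to type IV collagen (-2.64 ± 0.40), *Hspg2*, perlecan (-1.53 ± 0.41), and *Tnc*, tenascin C (-3.57 ± 0.59). Of 19 rows of other protease regulators (19 of 24 genes) 8 rose and 3 fell, beside the same shares of all rows. The rises included *Cst3*, cystatin C (2.70 ± 0.26). Of 31 rows of integrin adaptors and partners (27 of 31 genes) 3 rose and 6 fell. These lists were not tested against other genes.

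With repopulation in Saline, 5 rows of the matrix list rose and 7 fell, 2 adaptor rows rose and 3 fell, and 1 regulator row rose and 4 fell, where 11.9% of all rows rose and 14.9% fell. *Tgfbi*, a matrix protein that binds integrins, had 133 ± 5.95 TPM in Saline + CTRL and 1030.3 ± 586 TPM in Saline + MG-REP (SD, n = 3; log2 fold change of 2.80 ± 0.27, SE). *Serpine2*, an inhibitor of urokinase and thrombin, fell from 884 ± 98.6 to 299 ± 147 TPM (SD, n = 3; -1.71 ± 0.25). *Itgax*, the alpha-X partner of beta-2, rose from 17.8 ± 2.72 to 88.6 ± 11.9 TPM (SD, n = 3) and was the only row of the 3 lists called in MIA offspring, from 16.3 ± 3.01 to 49.6 ± 5.27 TPM. For *Tgfbi* (-2.51 ± 0.38) and *Serpine2* (1.25 ± 0.35) the difference between MIA and Saline offspring passed too, while for *Itgax* it did not (-0.70 ± 0.30, adjusted p = 0.149).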

How the data were processed

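The study sequenced poly(A) RNA of bead-isolated microglia with a non-stranded kit, aligned the reads to mm10 with Rsubread and counted them with featureCounts. The authors kept transcripts over a level minimum and deposited TPM for 14225 transcripts in 30 libraries, with the formula behind TPM not given in the sources used here. The deposited table also assigns each transcript to an expression module made from these libraries, which was not used. Genes that overlap on opposite strands cannot be told apart.

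Here log2(TPM + 1) of all 14225 rows and 30 libraries was fitted in 1 model with 10 group means by limma 3.58.1 in R 4.3.3 (moderated with a mean-variance trend, 20 residual degrees of freedom, two-sided), and p-values were Benjamini-Hochberg adjusted over all rows, with calls at 0.05. TPM are not counts, so no count model was run. The fit was tested on simulated data. A comparison names the called members whose groups do not overlap, up to 12 in each direction, the 3 smallest p-values where none was called, and the 3 most abundant members of each class. A lack of overlap in a named call thus follows from this rule and is no further support. Other members given with values (*Col11a1*, *Col18a1*, *Itga2b*, *Itgb2l*, *Mmp8* and *Mmp13*) and the genes outside the symbol rule were chosen after values were seen. The members and the lists of markers and pathway genes were chosen with earlier results of these data known. Alternatives were a pseudocount of 0.1, quantile normalization, scaling by median ratios, leaving out rows with a mean TPM under 1, a replicate block, fits of only the groups compared, moderation without a trend, *Xist* as a covariate, each library left out, and, added after the data were seen, endothelial and mural markers as a covariate. Same-numbered libraries of Saline and MIA deviated together in every pair at P20 (correlations of 0.238, 0.104 and 0.132). At E17 the same correlations were 0.404, 0.656 and 0.000317. At both ages the block left 0 calls as before.

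An estimated 1 read was worth 0.211 to 0.353 TPM at a length of 1 kb, and 71.0% to 76.7% of low values came out whole with a tolerance of 0.2 reads, where chance gives 40%. *Itgal*, *Sparc*, *Timp1*, *Itga5* and *Col4a1* were not analysed here, and the motif matches are on RefSeq's GRCm38.p6 table.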

Additional observations from a re-analysis of the deposited data

Results flagged for a closer look

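For 10 members the difference between MG-REP and CTRL in MIA offspring, minus that in Saline offspring, passed limma's test of the difference itself. On the log2 scale it was 2.48 for *Adamts16*, 1.96 for *Itgb3*, 1.87 for *Col27a1*, 1.14 for *Adamts1* and 0.80 for *Col6a6*, the genes that were lower after repopulation in Saline. Of these *Col6a6* rests on few reads, with a median of 8 per library. It was -2.41 for *Itga4*, -2.09 for *Col14a1*, -1.63 for *Plau*, -1.55 for *Plaur* and -1.29 for *Mmp14*, the genes that were higher. The adjusted p-values ran from 6.28e-06 for *Itga4* to 0.0293 for *Mmp14*, and in MIA offspring alone none of the 10 passed. In all 3 libraries of Saline + MG-REP these 10 genes lay outside the range of the Saline + CTRL libraries. The same lack of overlap held for 38.4% of all rows. The 10 genes were picked by a test that used these same libraries, so their lack of overlap is no further support.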

How the results depend on the processing

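Of the log2 fold changes of named calls, 962 kept their direction and their side of the threshold over the alternatives that keep all libraries, 67 lost the call and 1 reversed (*Col5a2* in Saline + MG-REP, to 0.0086 with the endothelial and mural covariate), and 631 kept and 143 lost it in the fits without a library. Group means of named members moved by more than their SD in 20 of 740 cases under median-ratio scaling. From E17 to P7 in Saline the rises became 2 with only the groups compared, and the fall became 0 under median-ratio scaling, 2 with the replicate block and 7 with the covariate. From P20 to P60 the rise became 0 with a pseudocount of 0.1, with a mean TPM of at least 1 and with only the groups compared, 2 after quantile normalization and 3 with the covariate, and the 10 falls became 0 with only the groups compared, 0 with *Xist* and 32 with the covariate. For Saline + MG-REP against Saline + CTRL, 5 rises and 8 falls were left with only the groups compared and 9 falls with the covariate, and for the difference between MIA and Saline 9 lower members with the covariate. The replicate numbers were not shown to pair libraries, also not at E17 and P20, where the same-numbered correlations of Saline and MIA are given above. With the replicate block 10 rises and 20 falls passed for Saline + MG-REP, and 6 higher and 5 lower for the difference. It left 20 and 38 for E17 to P60 in Saline, 17 and 43 in MIA, 15 and 31 for P7 to P20 and 1 and 9 for P20 to P60. For each MIA contrast within an age it left 0. Leaving out single libraries gave 13 to 19 rises and 33 to 40 falls for E17 to P60 in Saline, 10 to 16 and 36 to 51 in MIA, 1 to 4 and 0 to 1 for E17 to P7, 9 to 13 and 22 to 34 for P7 to P20, 0 to 1 and 1 to 9 for P20 to P60, 4 to 11 and 7 to 24 for Saline + MG-REP, 2 to 7 and 4 to 5 for the difference, and 0 for the others. For Saline + MG-REP the extremes were 4 rises and 7 falls without library 1, and 24 falls without library 2. Members with a median under 10 reads (17 rows) were limited by depth. All counts in these fits are of members, and shares of all rows under the alternatives are not given. The causes of these changes were not tested.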
